A study of Mus musculus with 6 samples.

Results

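The SUMO conjugation machinery was followed through 8 genes, taken by their mouse symbols: the modifiers Sumo2 and Sumo3, the E1 subunits Sae1 and Uba2, the E3 ligases Pias1 and Pias2, and the proteases Senp1 and Senp6. They are 8 of the 43346 Ensembl genes in the tables, and all 8 were among the 15747 genes with enough counts to be tested. RNA was sequenced from cultured mouse retinal ganglion cells (RGCs), the neurons whose axons form the optic nerve, after transduction with adeno-associated virus (AAV). The study compared wild-type Sox11, a transcription factor of the SoxC group, with Sox11K91A, in which lysine 91, a site of SUMOylation, is replaced by alanine.

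There were 3 groups of 2 replicates, named control, Sox11 and Sox11K91A. The study's methods give the vectors as control EGFP, Sox11-IRES-EGFP and Sox11K91A-IRES-EGFP, so the cells of every group were exposed to AAV and to an EGFP gene. The study used C57BL/6 mice, and the promoter of the vectors was not given in the sources used here. Cells were purified by immunopanning with CD90.1 and grown with forskolin, 50 ng/ml BDNF and 10 ng/ml CNTF. Each well held 250000 cells and received virus 4 h after plating, and RNA was taken at 72 h. The sources give 2 ages, embryonic day 18 for the RNA-seq and postnatal day 2 for RGC cultures in general. They also describe 3 RNA samples sequenced in duplicate, so the spread between replicates may be technical in part, and p-values measure only that spread. Whether the replicates were separate cultures was not stated. Levels of Xist and of Y-linked genes differed within control and within Sox11, as given below.

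SUMO is a small protein that is joined to lysines of other proteins, in a chain of steps that resembles ubiquitination. SENP proteases trim the SUMO precursor to expose a glycine pair at its end, the Sae1-Uba2 heterodimer (E1) activates it, and E3 ligases such as the PIAS proteins raise the efficiency and selectivity of its transfer to substrates. SENP proteases also remove SUMO again, and many transcription factors are substrates, often with less activity or another location in the cell when modified.

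The sequences at issue are the lysine codon that is changed in Sox11K91A and the ends of the Sumo2 and Sumo3 coding sequences, where the glycine pair lies. All come from GENCODE M21 on GRCm38. Codon 91 of Sox11, in capitals, lies in the only exon of the gene, and the 27 bases around it are chr12:27342124-27342150 on the minus strand.
Sox11 codon 91: tggaagatgctgAAGgacagcgagaag
In the next sequences, the last bases of each coding sequence up to the stop codon, capitals mark the codons of the glycine pair.
Sumo2: ttccagcagcagactGGAGGTgtctactaa
Sumo3: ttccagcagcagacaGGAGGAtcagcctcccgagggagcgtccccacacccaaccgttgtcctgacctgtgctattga
Between the glycine pair and the stop codon, Sumo2 has 2 codons and Sumo3 has 18, which are the codons that maturation by SENP proteases removes. Sumo2 and Sumo3 were alike over 236 of 285 aligned coding bases (82.8%), with a longest identical run of 17 bases.

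Libraries held between 27521982 and 37061718 expected counts, the read counts that RSEM assigns to genes. Sox11 itself, the check of the labels, was at 234 and 332 CPM (counts scaled by library size) in the control libraries, 9178 and 14590 in the Sox11 libraries, and 11970 and 7026 in the Sox11K91A libraries. Reads from the vector and from the mouse gene cannot be told apart in these counts. The 8 RGC markers were all present, at a summed level of 8070 to 8890 TPM (levels scaled by gene length and depth) in control and 3910 to 6540 TPM in the other 4 libraries. The 5 Müller glia and astrocyte markers summed to 72.7 to 82.8 TPM in control and 204 to 249 TPM in the other 4, with Gfap at 0 and Aqp4 below 1 TPM in every library. The part of these marker differences in the members' values was not tested. In bulk RNA, fewer cells of a type and less RNA per cell cannot be told apart. Control replicate 2 and Sox11 replicate 2 were set off from the rest along the second principal component (18.2% of the variance). They had the lowest Xist levels, 95.9 and 254 CPM against 400 to 526 CPM. The Y-linked genes Ddx3y, Eif2s3y, Uty and Kdm5d were highest in these 2 libraries. Eif2s3y was at 25.1 and 33.9 CPM there, against 7.66 to 12.6 CPM. Neither Sox11K91A library was set off in this way, so comparisons with Sox11K91A were not balanced over this difference. Control replicate 2 also differed by gene length: its genes under 1 kb were at a median of 0.35 above the mean of the 6 libraries (log2 CPM), and its genes over 6 kb at a median of -0.40, while the other libraries stayed between -0.14 and 0.14.

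The level of the members relative to each other is given in TPM, which accounts for gene length. Sumo2 was the most abundant, with a mean of 333 TPM over the 6 libraries, above 97.1% of the genes tested. Sae1 (153 TPM) and Sumo3 (145 TPM) followed, and their ranges over the libraries overlapped. Senp6 (99.4 TPM) and Uba2 (98.0 TPM) came next, again with overlapping ranges. Pias2 had a mean of 33.2 TPM, Pias1 of 16.5 TPM and Senp1 of 9.42 TPM, against a median of 16.8 TPM over all genes tested. The ranges of Pias2 and Pias1 overlapped between libraries, as did those of Pias1 and Senp1, although within each library Pias2 was 1.57 to 2.31 times the level of Pias1. The machinery thus covered levels from the 39.6th percentile (Senp1) to the 97.1st, with modifiers and E1 subunits above the ligases in each library.

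Against control, Pias2 was 1.87-fold higher with Sox11, and Pias1 was 1.49-fold higher, and these were the 2 members past the threshold, an FDR under 0.05 with a fold above 1.2. Over all genes tested, 20.1% passed the same threshold in either direction and 9.96% were higher, and read against this background 2 of 8 members (25%) is no result about the machinery as a whole. With Sox11K91A against control, no member passed by limma-voom, where 10.6% of all genes (1672) did. DESeq2 called Pias1 and Pias2, and 3144 genes in all.

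**Figure D1:**
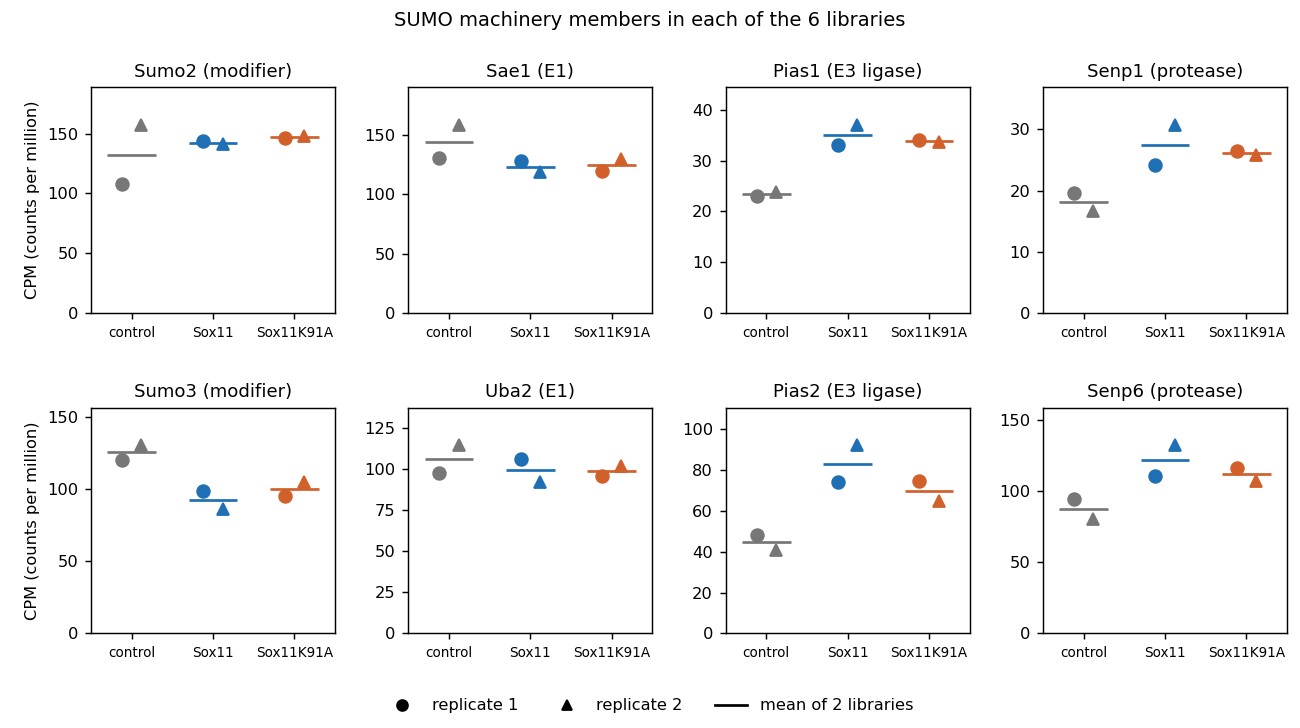
Level of each of the 8 members in CPM (vertical axes, each from 0), by group, with circles for replicate 1, triangles for replicate 2 and a line at the mean of 2 libraries. Pias1, Pias2, Senp1 and Senp6 are higher in each of the 4 Sox11 and Sox11K91A libraries than in either control library, Sumo3 and Sae1 are lower in each, and the control replicates of Sumo2 span the other groups.

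Sumo2 and Sumo3 encode the modifiers that can form SUMO chains. Sumo2 (chr11:115523102-115536276, minus strand) was at 107.6 and 157.3 CPM in control, 143.5 and 141.0 CPM with Sox11, and 146.2 and 148.0 CPM with Sox11K91A. The control replicates lay on either side of all 4 other libraries, which were between 141.0 and 148.0 CPM. On the log2 scale the control replicates differed by 0.547, compared with a median of 0.34 over all genes for the control pair. The fold change was 1.1 for Sox11 (95% confidence interval 0.799 to 1.50, adjusted p = 0.655) and 1.13 for Sox11K91A (0.825 to 1.55, adjusted p = 0.579). Without control replicate 1, the log2 fold change turned to -0.144 for Sox11 and -0.094 for Sox11K91A, so no direction is given for Sumo2. Sumo2 shares stretches of at least 100 bases at 95% identity or more with 11 pseudogenes, whose counts came to 0.396% of its own, and with Samd8. The counts of all these matching genes, summed, came to 62.5% of those of Sumo2. The posterior standard deviation that RSEM gives for the Sumo2 count was 1.59 to 3.3 counts per library.

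Sumo3 (chr10:77606097-77618331, plus strand) was at 120.2 and 130.1 CPM in control, 98.3 and 85.9 CPM with Sox11, and 94.8 and 105.0 CPM with Sox11K91A. Both control libraries lay above the other 4. The log2 fold change was -0.44 with Sox11 (SE 0.143, adjusted p = 0.0683) and -0.32 with Sox11K91A (SE 0.143, adjusted p = 0.178), neither past the threshold. With DESeq2 the value for Sox11 was -0.45 with an adjusted p of 0.0281, past the threshold. Sumo3 shares 346 exonic bases with Gm49325 on the same strand. No counts were found for Gm49325, but whether it was among the genes counted by the authors was not checked. How reads in the shared bases were assigned is therefore not known.

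The balance of the modifiers was looked at after these values were seen, and it is given without a test. The ratio of Sumo2 to Sumo3 in TPM was 1.50 and 2.02 in control, 2.44 and 2.77 with Sox11, and 2.57 and 2.78 with Sox11K91A. Both control ratios lay below the other 4. The sum of Sumo2 and Sumo3 was 427 and 517 TPM in control and 473 to 490 TPM elsewhere, so the sums of the control libraries lay on either side of the others. Control replicate 2 was high in short genes, and the mean length in the tables is 1048 bases for Sumo2 and 1640 bases for Sumo3. The length of Sumo3 was 1841 bases in Sox11K91A replicate 2 and 1591 to 1609 bases in the other libraries, and TPM depends on it. The part of gene length in the ratio was not tested.

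**Figure D2:**
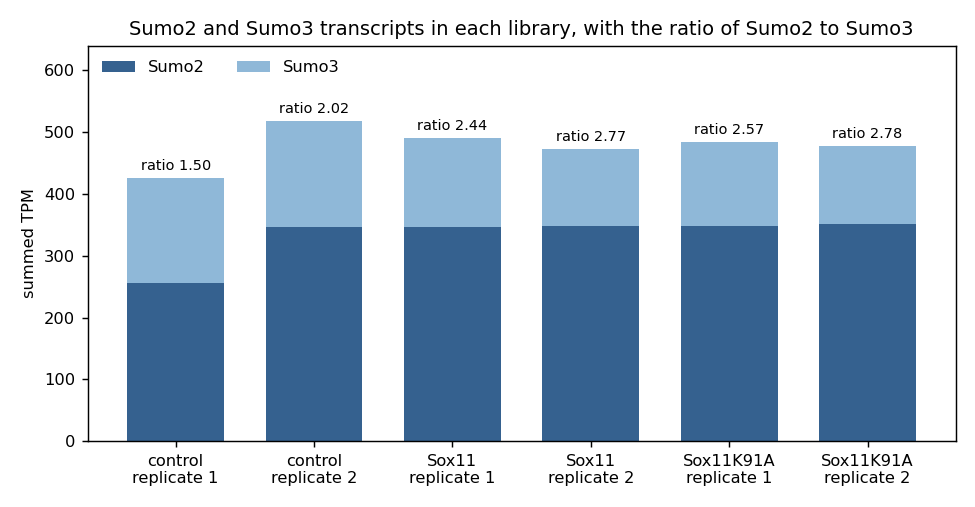
Summed TPM of Sumo2 and Sumo3 in each library (vertical axis, from 0), with a segment for each gene and the ratio of Sumo2 to Sumo3 above each bar. The ratio is 1.50 and 2.02 in the control libraries and 2.44 to 2.78 in the other 4.

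Sae1 and Uba2 form the heterodimer that activates SUMO, and Uba2 carries the catalytic cysteine. Sae1 (chr7:16320234-16387806, minus strand) was at 130.6 and 158.6 CPM in control, 128.0 and 118.9 CPM with Sox11, and 119.4 and 129.9 CPM with Sox11K91A. The lower control library lay close to the highest of the others. The fold change was 0.859 with Sox11 (0.670 to 1.1, adjusted p = 0.328) and 0.866 with Sox11K91A (0.676 to 1.11, adjusted p = 0.404). Uba2 (chr7:34140688-34169599, minus strand) was at 98.1 and 114.7 CPM in control, 106.6 and 92.2 CPM with Sox11, and 96.0 and 101.8 CPM with Sox11K91A, so that the groups overlapped. Its fold change was 0.935 with Sox11 (0.731 to 1.2, adjusted p = 0.675) and 0.933 with Sox11K91A (0.729 to 1.19, adjusted p = 0.70). The intervals of both subunits reached from 0.670 to 1.2 over the 2 comparisons. Together the E1 subunits summed to 235 to 274 TPM. The ratio of Sae1 to Uba2 in TPM, also looked at after the values were seen, was 1.71 and 1.69 in control and 1.46 to 1.53 in the other 4 libraries. The length that RSEM gives for Sae1 was 1884 bases in every library, while that of Uba2 ran from 2099 bases in Sox11 replicate 2 to 2361 bases in control replicate 1, and TPM depends on it.

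Pias1 and Pias2 are SP-RING ligases, first described as inhibitors of activated STAT proteins. Pias1 (chr9:62878368-62987924, minus strand) was at 23.1 and 23.8 CPM in control, 33.1 and 37.0 CPM with Sox11, and 34.0 and 33.8 CPM with Sox11K91A. Both control libraries lay below the other 4, and Sox11 and Sox11K91A overlapped. Its log2 fold change was 0.58 with Sox11 (SE 0.145, adjusted p = 0.0360), past the threshold, and 0.53 with Sox11K91A (SE 0.145, adjusted p = 0.0617), just short of it. The first of these calls was not firm. It was kept in 7 of 22 alternative settings, with log2 fold changes of 0.44 to 0.67 and adjusted p-values from 0.00644 to 0.208, and it was lost without control replicate 2 (adjusted p = 0.0606) or without either Sox11 library or either Sox11K91A library (adjusted p = 0.0591 to 0.208).

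Pias2 (on chromosome 18, plus strand) was at 48.4 and 40.7 CPM in control, 74.0 and 92.2 CPM with Sox11, and 74.5 and 65.1 CPM with Sox11K91A. All 4 Sox11 and Sox11K91A libraries were above both controls, with Sox11 replicate 2 the highest. The log2 fold change was 0.90 with Sox11 (SE 0.174, adjusted p = 0.0197) and 0.65 with Sox11K91A (SE 0.174, adjusted p = 0.0572). The call with Sox11 was kept in 17 of 22 alternatives, with adjusted p-values from 0.000391 to 0.131. It was lost without Sox11 replicate 2 (log2 fold change 0.75, adjusted p = 0.131) and without control replicate 2 (0.77, adjusted p = 0.0539). The mean length of Pias1 in the tables is 3855 bases and that of Pias2 is 4107 bases, in the range where control replicate 2 was low for genes in general. With the trend of each library over gene length removed, a setting chosen after the data were seen, the log2 fold change with Sox11 was 0.44 for Pias1 (adjusted p = 0.0561) and 0.75 for Pias2 (adjusted p = 0.0198).

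Senp1 and Senp6 encode SUMO proteases, of which Senp1 also matures the precursors and Senp6 mainly trims chains of SUMO2 and SUMO3. Senp1 (chr15:98038744-98093744, minus strand) was at 19.7 and 16.7 CPM in control, 24.2 and 30.7 CPM with Sox11, and 26.6 and 25.9 CPM with Sox11K91A. Senp6 (chr9:80066903-80144953, plus strand) was at 94.5 and 80.2 CPM in control, 110.9 and 132.1 CPM with Sox11, and 116.5 and 107.2 CPM with Sox11K91A. For both proteases the control libraries were the lowest of the 6, and Sox11 replicate 2 the highest. Senp1 has a mean length of 5183 bases, in the range where control replicate 2 was low for genes in general. The mean length of Senp6 is 2325 bases. Neither protease passed the threshold. The log2 fold change of Senp1 was 0.61 with Sox11 (SE 0.186, adjusted p = 0.0596) and 0.55 with Sox11K91A (SE 0.186, adjusted p = 0.103). That of Senp6 was 0.47 with Sox11 (SE 0.158, adjusted p = 0.0727) and 0.36 with Sox11K91A (SE 0.157, adjusted p = 0.175). Senp1 passed with Sox11 under DESeq2 (adjusted p = 0.0377), and Senp6 passed without control replicate 1 (adjusted p = 0.0423). Senp1 overlaps Pfkm and Gm26513, and Senp6 overlaps Gm17477, all on the opposite strand. The use of strand in counting is not stated, so how reads in the shared bases (480 for Senp1 and 108 for Senp6) were assigned is not known. The posterior standard deviation that RSEM gives for each count was 0 for Senp6 in all 6 libraries and at most 0.49 for Senp1. Senp6 also matches Atp5l over 4.75% of its transcript at 95% identity or more, and the counts of Atp5l came to 59.1% of those of Senp6.

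**Figure D3:**
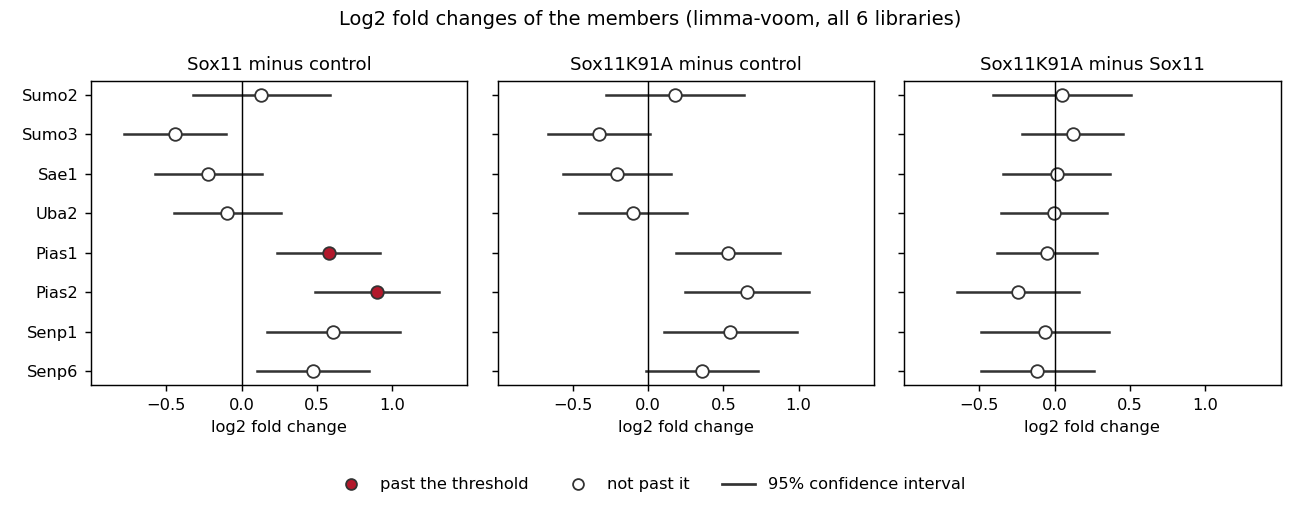
Log2 fold changes of the members in the 3 comparisons (horizontal axes) with 95% confidence intervals from limma-voom, filled where the threshold was passed. Pias1 and Pias2 are past it for Sox11 against control, and all 8 intervals cover 0 for Sox11K91A against Sox11.

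Counted over the machinery, 6 of 8 members (75%) had groups that did not overlap between Sox11 and control, with Pias1, Pias2, Senp1 and Senp6 higher and Sumo3 and Sae1 lower. Over all genes tested this share was 61.5%, with 30.9% higher and 30.6% lower. Between Sox11K91A and control, 6 of 8 again did not overlap, with the ligases and proteases higher and Sumo3 and Sae1 lower, where the share over all genes was 61.9%, with 31.2% higher and 30.7% lower. Both comparisons use the same control libraries. The split also follows gene length, with means of 1640 bases for Sumo3 and 1884 for Sae1, and 2325 (Senp6) to 5183 (Senp1) for the higher members. Control replicate 2 had a median of 0.20 for genes of 1000 to 2000 bases and -0.23 for those of 4000 to 6000. The part of gene length in these counts and in the medians below was not tested. The median log2 fold change of the members was 0.30 with Sox11 and 0.27 with Sox11K91A, against 0.01 and 0.02 over all genes tested. At an unadjusted p under 0.05, 5 members passed with Sox11 (62.5%, against 38% of all genes) and 3 with Sox11K91A (37.5%, against 30.6%). At the FDR threshold, 0 of 8 members passed with Sox11K91A by limma-voom and by edgeR, against 10.6% of all genes (1672) by limma-voom. DESeq2 called 2 members, Pias1 and Pias2, but it also called more of all genes, 3144.

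The comparison of Sox11K91A with Sox11 asks whether losing the SUMO site changes the response. None of the 8 members passed the threshold by limma-voom, edgeR or DESeq2, and none had an unadjusted p under 0.05. By limma-voom, 0% of all genes passed the threshold and 0.686% had an unadjusted p under 0.05. Without any difference, a share of about 0.05 of the genes would have such a p. Low p-values were thus scarce for genes in general, and their absence among the members says little. The paper's volcano plot, in contrast, counts genes more downregulated and genes more upregulated by Sox11K91A than by Sox11. Its caption does not state their threshold. The paper's methods give limma-voom with an FDR under 0.05 and a fold above 1.2 for the genes taken further, as used here. The discrepancy was not examined. Among the members, the largest difference was in Pias2, at a fold of 0.844 (0.637 to 1.12). Sumo3 followed at 1.09 (0.859 to 1.37) and Senp6 at 0.924 (0.713 to 1.2). Pias1 was at 0.967 (0.768 to 1.22), Senp1 at 0.956 (0.714 to 1.28), Sumo2 at 1.03 (0.753 to 1.42), Sae1 at 1.01 (0.788 to 1.29) and Uba2 at 0.997 (0.780 to 1.28). Over the 8 members the intervals reached from 0.637 to 1.42, so differences of that size may have gone undetected. Only Sumo2 had groups that did not overlap, with both Sox11K91A libraries above both Sox11 libraries. Of all genes tested, 26.6% did not overlap and 13.3% were higher. Sox11 counts, from vector and mouse gene together, overlapped between the groups, at 11880 ± 3830 CPM with Sox11 and 9498 ± 3500 CPM with Sox11K91A (SD, n = 2).

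**Figure D4:**
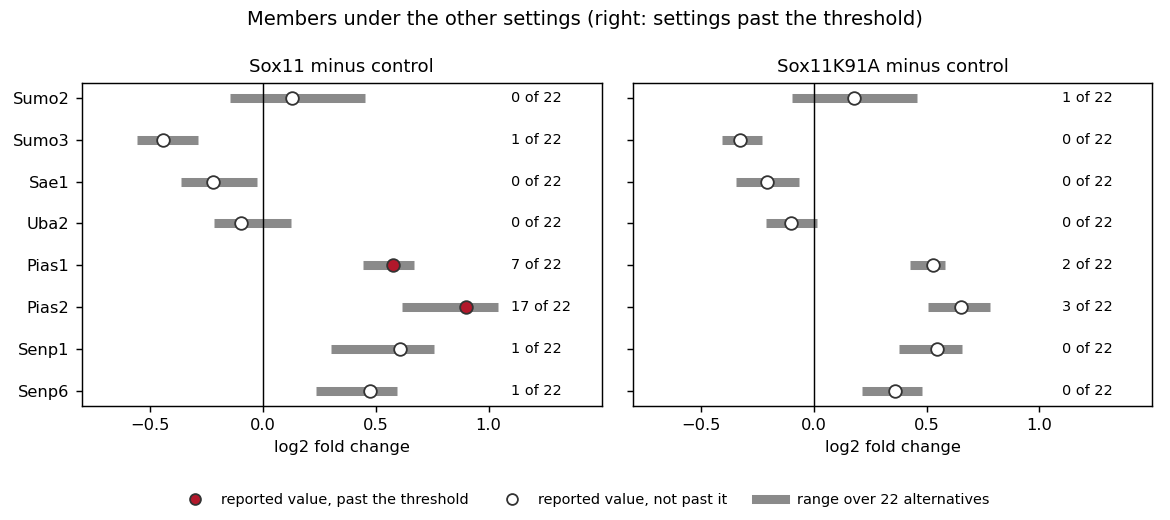
Reported log2 fold change of each member against control (points, filled where past the threshold) and the range over 22 other settings (bars), with the number of those settings past the threshold at the right. Pias2 with Sox11 is past it in 17 of 22 and Pias1 in 7 of 22, and the bars of Sumo2 and Uba2 cross 0.

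Of the other 23 genes listed for the SUMO pathway, 4 passed the threshold with Sox11 (17.4%), each of them higher, where 9.96% of all genes were higher and 10.2% lower. Zfp451, a ligase that extends SUMO2 and SUMO3 chains, went from 65.0 and 66.0 CPM in control to 116.8 and 137.5 CPM, a log2 fold change of 0.95 (SE 0.145, adjusted p = 0.0130). Senp7, a protease that acts on chains, went from 25.2 and 24.4 CPM to 42.7 and 55.4 CPM, at 0.98 (SE 0.18, adjusted p = 0.0179). Rnf111 and Rnf4 encode ubiquitin ligases that recognise SUMO chains. Rnf111 went from 42.3 and 37.0 CPM to 70.8 and 88.0 CPM, at 1.00 (SE 0.172, adjusted p = 0.0161), and Rnf4 from 130.8 and 109.5 CPM to 171.1 and 170.6 CPM, at 0.51 (SE 0.142, adjusted p = 0.0467). The Rnf4 call was lost with edgeR, with the size factors of DESeq2 and among all genes with at least 1 count. It was also lost with sample quality weights, in a fit of only the 2 groups compared, with replicate number as a block and at a fold above 1.5. The same held without control replicate 2 and Sox11 replicate 2 together, and when any single library other than control replicate 1 was left out. Senp7 was not called with sample quality weights or without control replicate 2. Without Sox11 replicate 2, none of these 4 genes was called.

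With Sox11K91A, 3 of the 23 passed (13%), each of them higher, where 5.81% of all genes were higher and 4.81% lower. They were Zfp451 (log2 fold change 0.76, adjusted p = 0.0279), Senp7 (0.77, adjusted p = 0.0434) and Rnf111 (0.76, adjusted p = 0.0410). Rnf4 had 0.50 with an adjusted p of 0.0671. None of the 23 passed between Sox11K91A and Sox11 by limma-voom, edgeR or DESeq2, or at an unadjusted p under 0.05. Of all genes tested, 0.686% had such a p in this comparison. The median log2 fold change of the 23 genes was 0.02 with Sox11 and 0.06 with Sox11K91A, and 13 and 14 of them were above 0. Without Sox11 replicate 2, none of the 23 passed with Sox11 and 4 had an unadjusted p under 0.05, and of all genes tested none passed and 3347 had such a p. Without control replicate 2, the calls with Sox11K91A were lost, among the 23 and among all genes tested alike.

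**Figure D5:**
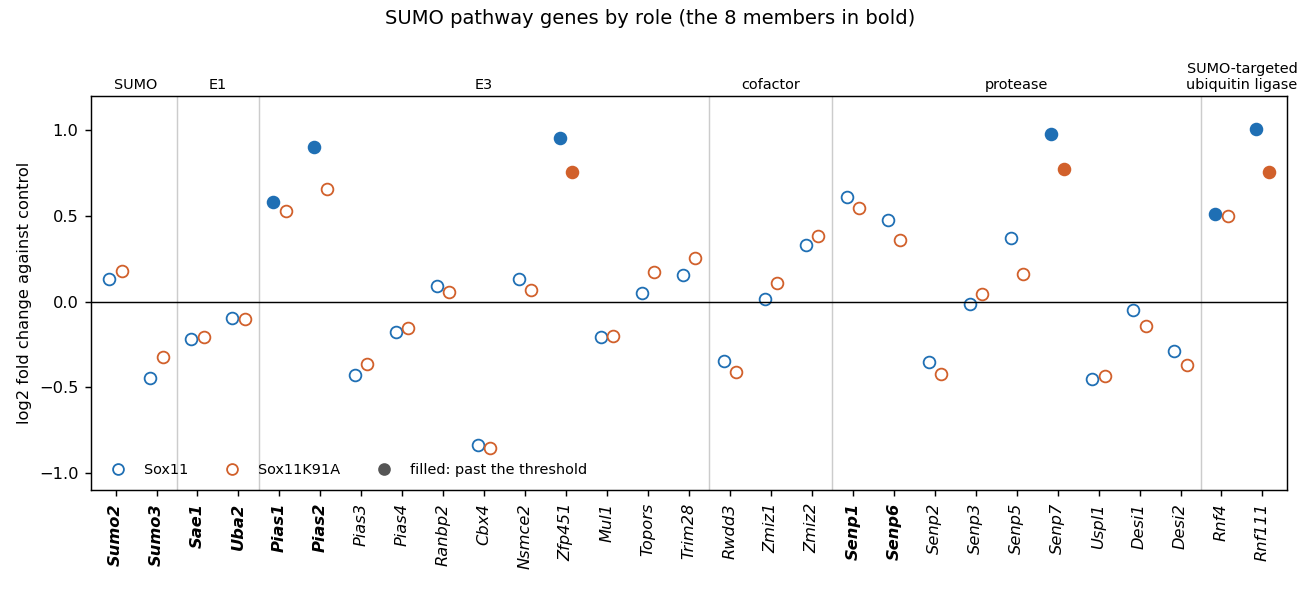
Log2 fold change against control (vertical axis) of 29 of the 31 SUMO pathway genes, ordered by role, the others not being reported here, for Sox11 (blue) and Sox11K91A (orange), filled where past the threshold, with the 8 members in bold. Past the threshold are Pias1, Pias2, Zfp451, Senp7, Rnf4 and Rnf111 with Sox11, and Zfp451, Senp7 and Rnf111 with Sox11K91A.

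For the members other than Pias2, the gene with the most similar profile was found as the one whose log2 CPM, centred on its own mean, had the smallest root mean square distance over the 6 libraries, out of 15746 genes. Pias1 was closest to Gtf2e1 (distance 0.0170 in log2 CPM), which was at 28.9 and 30.0 CPM in control, 41.2 and 47.7 CPM with Sox11, and 43.3 CPM in both Sox11K91A libraries. Senp1 was closest to Apcdd1 (0.0267) and Senp6 to Ehbp1 (0.0229). Apcdd1 was low, at 0.908 to 1.66 CPM over the 6 libraries, so its match rests on few counts. Sumo2 was closest to Zfp692 (0.0281), Sumo3 to Ap2m1 (0.0184), Sae1 to Txnrd3 (0.0191) and Uba2 to Fam49b (0.0132). None of these was itself a member.

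RefSeq promoters on GRCm38.p6, from 250 bases before to 50 bases after a start, were matched for 6 of the 8 members, with 9 starts in all. They were searched on both strands for ACAAAG and ACAATG, forms of the core letters that Sox proteins bind, a choice made after the expression values were seen. At least 1 of these stood in 28.6% of 32851 promoters and in 1 of the 9 member promoters. That match is ACAAAG at a start inside the Sumo3 gene, shown in capitals within 30 bases at chr10:77613698-77613727 on the plus strand, and it begins 1 base after the start site.
Sumo3 inner start: ggaggaaatggtACAAAGtacagaaggaac
The 250 bases before the RefSeq start of Pias1, the called member with a RefSeq promoter here, are shown for comparison. This start lies inside the GENCODE span of the gene given above, and the bases are chr9:62980880-62981129 on the minus strand. Neither set of letters stands in them.
Pias1: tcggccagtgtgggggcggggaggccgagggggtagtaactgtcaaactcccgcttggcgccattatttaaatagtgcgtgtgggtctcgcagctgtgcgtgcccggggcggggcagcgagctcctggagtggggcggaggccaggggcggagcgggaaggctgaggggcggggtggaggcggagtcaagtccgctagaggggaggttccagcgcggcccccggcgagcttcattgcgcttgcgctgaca
Over the whole window, the Pias1 promoter had a GC content of 66.3%.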

How the data were processed

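Reads had been aligned to mm10 with STAR, and gene counts estimated with RSEM, by the authors, who ran both on DNAnexus. They deposited 1 table per library, with RSEM expected counts, which are not normalized, and TPM values, which are scaled within each library by gene length and depth. The tables also give, per the file headers, a length in bases per gene and library and a posterior standard deviation of each count. Versions, annotation release and use of strand were not given in the sources used here. Numbered entries (26248) and 96 spike-in entries were left out, and 42462 of 43346 Ensembl genes were named from GENCODE M21.

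Expected counts were rounded, filtered with filterByExpr by group and scaled with TMM (edgeR 4.0.16, factors 0.985 to 1.04). All 6 libraries were fitted with limma-voom (limma 3.58.1, R 4.3.3), without a covariate, and called at a Benjamini-Hochberg FDR under 0.05 over all genes tested and a fold above 1.2. The tool and thresholds are those of the study's methods, which do not state the filter or scaling. All adjusted p-values are two-sided and from limma-voom unless DESeq2 (1.42.0) or edgeR is named. CPM values use TMM-scaled library sizes, and 1 count was 0.0259 to 0.0364 CPM. An exact permutation test of 2 against 2 libraries cannot go below p = 0.333 and was not used. Shared sequence was searched with blastn 2.17.0, with plots from matplotlib 3.10.9 (pandas 2.3.3, Python 3.11.15).

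The members and gene lists were chosen with earlier results of these data known. Named genes are the 8 members, any other listed gene that was called, the closest gene to each member and Sox11. Some genes that the rule names are not reported here. The alternatives comprised 21 planned settings and 4 added after seeing the data, namely removal of the trend of each library over gene length, this with the replicate block or without control replicate 2, and a block with the Sox11K91A numbers crossed.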

Additional observations from a re-analysis of the deposited data

How the results depend on the processing

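The counts below are of members, of the other 23 SUMO pathway genes and of all genes past the threshold. DESeq2 called 4332 genes and 4 members with Sox11 (Pias1, Pias2, Senp1 and Sumo3), and with Sox11K91A 2 members, 6 other pathway genes and 3144 genes, and 2 genes between Sox11K91A and Sox11. Sample quality weights left 979 genes, 0 members and 2 other pathway genes with Sox11. Limma-trend on log2(TPM + 1) left 1 member with Sox11, 936 genes and 0 other pathway genes with Sox11K91A, and 2244 genes with Sox11. On log2(TPM + 0.1) these were 1, 896 and 0, with 2107 genes for Sox11. With Sox11, 1 member (Pias2) was called among all genes with at least 1 count (2817 genes called) and in a fit of only the 2 groups compared (1598 genes). The same held at a fold above 1.5 (2988 genes), and with the length trend removed, with or without the replicate block. Without the length trend, examined after seeing the data, 3663 genes passed with Sox11, against 3171 in the main fit. Removing the trend also moved the other pathway genes to 8 with Sox11 and, with the block, to 0 with Sox11K91A. Removing it without control replicate 2 gave 2024 genes and 0 members with Sox11, and 0 genes and 0 other pathway genes with Sox11K91A.

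With control replicate 2 and Sox11 replicate 2 both left out, the lone libraries of those groups being assumed to vary like the Sox11K91A pair, 2094 genes and 0 members were called with Sox11, and 4108 genes, 3 members (Pias1, Pias2 and Sumo2) and 6 other pathway genes with Sox11K91A. Leaving out each library in turn gave 0 to 3753 genes, 0 to 3 members and 0 to 6 other pathway genes with Sox11, the 0 for all genes coming without Sox11 replicate 2. With Sox11K91A the ranges were 0 to 2563 genes, 0 to 1 members and 0 to 7 other pathway genes, with 0 genes without control replicate 2, 19 without Sox11K91A replicate 1 and 319 without Sox11K91A replicate 2. Without 1 library, its partner is assumed to vary like the other groups.

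Same-numbered libraries correlated at 0.259 (control and Sox11), -0.045 (control and Sox11K91A) and -0.282 (Sox11 and Sox11K91A) in their deviations from the group means, so the numbers were not taken to pair them. The replicate block gave 2679 and 1402 genes against control, 1 member with Sox11 (Pias2, adjusted p = 0.026, with Pias1 at 0.0615) and 0 with Sox11K91A, 3 and 1 other pathway genes, and 0 genes between Sox11K91A and Sox11. A block with the Sox11K91A numbers crossed, added after seeing the data, gave 0 genes in that comparison.

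Signs turned in small differences. Uba2 with Sox11 was at 0.083 and 0.084 on the TPM scales and 0.124 without both doubted libraries, and -0.216 to 0.015 with each library left out. With Sox11K91A it was at 0.013, 0.013 and 0.016, and -0.211 to 0.013. Sumo2 ranged from -0.144 to 0.40 with Sox11 and from -0.094 to 0.453 with Sox11K91A when each library was left out. Between Sox11K91A and Sox11, the TPM scales gave -0.030 for Sumo3 and -0.027 for Sae1, the fit of genes with at least 1 count gave 0.004 for Uba2, and the length trend without control replicate 2 gave -0.002 for Sae1. Without both doubted libraries, that comparison gave -0.040 for Sae1, 0.037 for Pias1, 0.115 for Senp1 and 0.011 for Senp6. With each library left out, it ranged from -0.046 to 0.080 for Sae1, -0.108 to 0.114 for Uba2, -0.115 to 0.037 for Pias1, -0.216 to 0.115 for Senp1 and -0.228 to 0.011 for Senp6. The causes were not tested. Pias1, Pias2, Senp1, Senp6, Sumo3 and Sae1 kept their sign against control in all 22 alternatives. With 2 libraries a group, the intervals above set what could be detected.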
